A study of Mus musculus with 3 samples.

Results

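Clusters of CELF1 binding were examined in 10 mouse genes of the sarcoplasmic reticulum, its junctions with the cell surface and calcium exchange across that surface. These were the pumps Atp2a2 and Atp2a1, their inhibitor Pln, the exchanger Slc8a1 and the calcium stores Casq2 and Casq1. The others were the junction proteins Trdn and Asph and the junctophilins Jph2 and Jph1. A cluster was counted for a gene when the cluster lists gave it that gene's Entrez identifier. This gave 396 of the 72222 clusters in the 3 libraries, in 9 of the 10 genes, and 8037 genes had a cluster in all. CELF1 (CUGBP1) is an RNA-binding protein of splicing and mRNA decay, and CLIP-seq recovers the RNA that ultraviolet light has fixed to it. The heart library came from ventricle and the muscle library from muscle of 16-week-old C57/BL6 mice, with no further name for the muscle and no number of animals in the labels. The remaining library came from C2C12 myoblasts, an established line of dividing mouse muscle precursors grown in culture. All 3 used antibody 3B1 against the endogenous protein, and each source gave 1 library, so no difference below has a replicate check.

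In heart and skeletal muscle, each beat or twitch begins when calcium leaves the sarcoplasmic reticulum and ends when the SERCA pumps return it to the lumen, where calsequestrin binds it. In cardiac cells the sodium-calcium exchanger carries the remaining share out across the surface membrane, and phospholamban brakes the pump until it is phosphorylated. Triadin and junctin tie calsequestrin to the release channel, and junctophilins bridge the reticulum and the surface membrane. Atp2a1 and Casq1 are the forms typical of fast skeletal fibres, and Atp2a2, Casq2 and Pln those of heart and slow fibres.

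CELF1 prefers RNA rich in U and G, and nearly every cluster in these genes held the trinucleotide UGU: 98.2% of 272 clusters in heart, 96.5% of 115 in muscle and 9 of 9 in C2C12. Over all clusters of each library the shares were 98.3% in heart, 98.4% in muscle and 86.4% in C2C12. Windows of the median cluster width laid end to end over the same genes held UGU in 68.1% (heart), 66.8% (muscle) and 54.5% (C2C12) of cases. In 4 places all 3 libraries carried a cluster, and for the 3 in introns 30 nt of the stretch common to the 3 clusters are given first, because every library had a cluster there. They are written 5′ to 3′ on the transcribed strand, from the mm9 genome, with each UGU in capitals, and overlapping UGUs run together.
Slc8a1, intron 1, chr17:82002185-82002214, minus strand: UGUucuucUGUGUugaaucUGUUGUcuUGU
Atp2a2, intron 9, chr5:122917016-122917045, minus strand: acagcuucUGUuuagguucUGUuUGUuUGU
Atp2a2, intron 5, chr5:122938727-122938756, minus strand: UGUgcuuggucugcgUGUuUGUGUcUGUGU

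The genes differed in how UGU was arranged. The sequences below are the 30 nt richest in UGU within the cluster that held the most UGU of its gene in the library named, and they set the repeats of Slc8a1, Jph2, Jph1 and Casq2 introns beside the scattered UGUs of Pln, Casq1 and Atp2a1.
Slc8a1, intron 1, heart, chr17:81939092-81939121, minus strand: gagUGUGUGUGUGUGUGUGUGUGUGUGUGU
Jph2, intron 2, heart, chr2:163198622-163198651, minus strand: cUGUGUGUGUgacagUGUGUcuaUGUGUGU
Jph1, intron 2, heart, chr1:17015222-17015251, minus strand: uUGUGUGUGUGUGUGUGUGUGUGUGUGUGU
Jph1, intron 3, muscle, chr1:17003338-17003367, minus strand: UGUUGUUGUUGUUGUUGUUGUUGUUGUUGU
Casq2, intron 9, heart, chr3:101937694-101937723, plus strand: aUGUGUGUgaguaUGUGUGUGUGUaUGUGU
Pln, 3′ UTR, heart, chr10:53065491-53065520, plus strand: agaggucUGUaaaaaauacauaaguUGUGU
Casq1, 3′ UTR, heart and muscle, chr1:174140108-174140137, minus strand: cccuggccaggaggaagggagguacUGUGU
Atp2a1, coding exon 14, heart, chr7:133593794-133593823, minus strand: ggucaucgaccgcUGUaacuaUGUgcgUGU

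The repeats were long in several introns, though dense UGU was not confined to introns. In 3′ UTRs, the richest 30 nt of Asph in heart held 12 UGUs and those of Atp2a2 in muscle 9. The windows above were also picked from unlike numbers of clusters, 111 for Slc8a1 and 2 for Casq1 in heart. The longest unbroken UG repeat in a cluster was 41 nt in Slc8a1 (heart), 31 nt in Slc8a1 (C2C12) and 29 nt in Jph1 (heart). In heart, Jph2 clusters held 15.1 UGUs per 100 nt and Slc8a1 clusters 8.91, against 3.16 in Pln and 2.78 in Casq1, and the value over all heart clusters was 8.79. The 9 member clusters without UGU lay in Atp2a2 (2 in heart and 4 in muscle), Casq2 (2 in heart) and Slc8a1 (1 in heart), and 4 of the 6 Atp2a2 ones were in coding exons.

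The members took 0.644% of all heart clusters (272 of 42263, exact 95% interval 0.570% to 0.725%), 0.463% of muscle clusters (115 of 24844, 0.382% to 0.555%) and 0.176% of C2C12 clusters (9 of 5115, 0.0805% to 0.334%). The libraries thus differed in the number of called clusters, and 0 clusters in C2C12 still allows a share of up to 0.0587%. Intervals and tests below cover counting error only and compare these libraries, not tissues in general. The lists hold no read numbers and no RNA levels, so more binding per transcript cannot be told apart from more transcript, nor fewer cells of a type from less RNA per cell. Clusters were at most 126 nt wide, and long bound stretches appeared as a row of abutting clusters: 23 of the 272 heart clusters in the members (8.46%) were at least 120 nt wide, against 764 of all heart clusters (1.81%).

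Marker genes were checked against the labels. Of 8 cardiomyocyte markers, 6 were bound in heart, 2 in muscle and 1 in C2C12 (343, 2 and 1 clusters), with 252 of the heart clusters in Ryr2 and none in Nppa or Myl7. Of 8 markers of skeletal fibres, 5 were bound in heart, 7 in muscle and 0 in C2C12 (9, 87 and 0 clusters), with Tnni2 at 0 in all 3 libraries. Myoblast markers had 6, 4 and 39 clusters, of which 26 of the C2C12 ones lay in Hmga2 and 11 in Ccnd1, and Myf5, Pax7, Cdk4, Igf2bp3 and Mki67 were at 0 throughout. The other lists counted 75 clusters in heart, 23 in muscle and 0 in C2C12 for endothelial cells, 23, 16 and 2 for smooth muscle, 7, 3 and 0 for macrophages, 4, 4 and 2 for fibroblasts, and 2, 3 and 2 for Schwann cells.

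Of the 10 members, 9 had a cluster in any library, and all 9 had one in heart and in muscle. Of the 8037 genes bound in any library, 85.3% had one in heart and 66.5% in muscle. In C2C12 only Slc8a1, Atp2a2 and Asph had one (3 of the 9), where 34.3% of the 8037 bound genes did. The median bound member held 14 clusters in heart, 14 in muscle and 3 in C2C12, where the median bound gene held 3, 3 and 1. Slc8a1 ranked 9th of 6857 bound genes in heart and Atp2a2 30th, and in muscle Asph ranked 41st of 5341 and Jph1 80th.

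**Figure D1:**
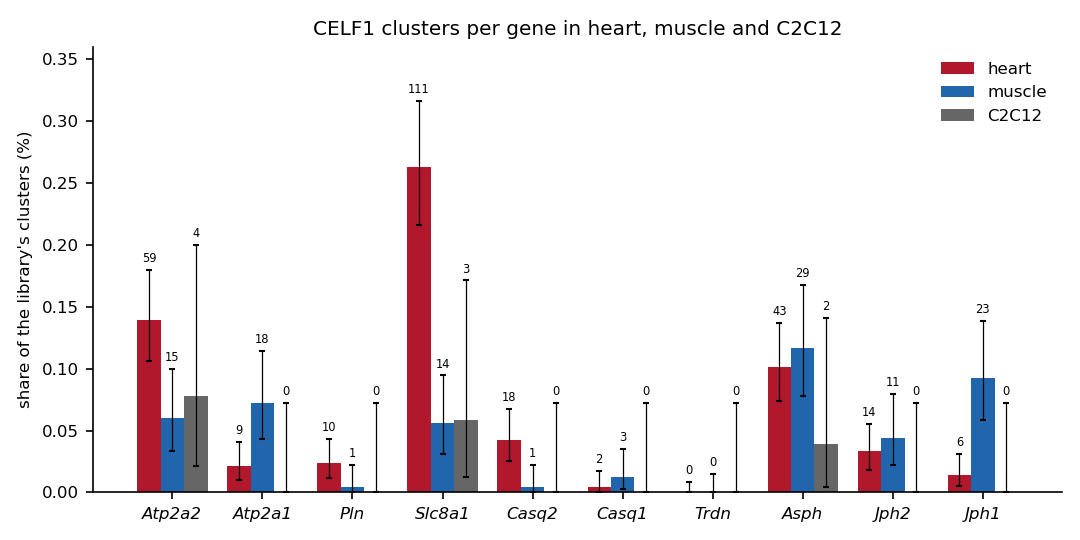
Share of each library's clusters (%) that lay in each of the 10 genes in heart, muscle and C2C12, with exact 95% intervals as error bars and the number of clusters above each bar. Slc8a1 and Atp2a2 stand highest in heart (111 and 59 clusters), Atp2a1 and Jph1 hold 9 and 6 clusters in heart, against 18 and 23 in muscle, and Trdn has no bar in any library.

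Each gene's clusters were tested against all other clusters of the library in a two-sided Fisher's exact test over every gene bound in either library, with Benjamini-Hochberg (BH) adjustment over all of them. Between heart and muscle, 2 of the 9 bound members passed 0.05: Slc8a1, with more in heart, and Jph1, with fewer. Over all 7625 genes tested, 1.8% passed in either direction (0.944% higher and 0.852% lower in heart). At an unadjusted 0.05, 5 of the 9 members passed (the others were Atp2a2, Atp2a1 and Casq2), against 7.42% of all genes. A gene with few clusters can hardly pass, and the shares over all genes here and below were not matched for cluster number. The median bound member held 14 clusters in heart and 14 in muscle, and the median bound gene 3 in each. Between heart and C2C12, 0 of 9 members passed Fisher's exact test after BH adjustment, where 0.785% of 7390 genes did (0.176% higher and 0.609% lower in heart), and only Slc8a1 passed unadjusted (5.74% of all genes did). Between muscle and C2C12 the count was again 0 of 9 by Fisher's exact test (0.715% of 6153 genes, with 0.146% higher and 0.569% lower in muscle), and only Jph1 passed unadjusted (6.5% of all genes). Calls by size alone, a share at least 2 times higher or lower with 5 or more clusters, took in 7 members between heart and muscle, where 23.6% of genes with that many clusters were higher and 19.3% lower. They took in 7 between heart and C2C12 (49.6% higher and 22.7% lower) and 4 between muscle and C2C12 (46.9% and 19%). Of these, 5 of the 7 and 3 of the 4 had 0 clusters in C2C12, so they reached the cluster minimum through heart or muscle alone and nothing is read from their counts.

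Atp2a2 encodes SERCA2, the pump of heart and slow muscle. It held 59 clusters in heart, 15 in muscle and 4 in C2C12, or 0.140%, 0.0604% and 0.0782% of each library. The share was 2.31 times higher in heart than in muscle (interval 1.30 to 4.39), which missed the threshold after adjustment (BH p = 0.101, Fisher's exact test). It passed where genes bound in both libraries alone were tested, which leaves fewer tests to adjust for (BH p = 0.0394, Fisher's exact test). With clusters closer than 50 nt merged, the counts were 41 and 14 and BH p was 1 in the exact test. By covered nucleotides the gene took 0.207% of the heart library and 0.0555% of the muscle library. Heart over C2C12 was 1.79 (0.662 to 6.77) and muscle over C2C12 was 0.772 (0.246 to 3.20), and both intervals included 1.

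The pump was bound along most of its annotated mRNA in heart. The gene lies at chr5:122903531-122952183 on the minus strand (mm9), with a single annotated coding transcript of 21 exons. Coding, 3′ UTR and intron counts follow this transcript of 3141 coding nt alone, and other splice forms of the pump were not tested. In heart, 21 clusters lay in 16 of its 20 coding exons, 12 in the 3′ UTR and 26 in introns, 15 of these in intron 5, the longest at 15947 nt. Set to length, this was 6.69 clusters per kb of coding sequence and 5.87 per kb of 3′ UTR, against 0.605 per kb of intron. The last exon was bound nearly end to end: 7 heart clusters formed a stretch of 897 nt at chr5:122903527-122904423, which ran over the exon's start into intron 20. A second stretch of 4 clusters covered 473 nt of the 3′ UTR in exon 20, the exon that holds the stop codon. In muscle 6 clusters lay in the 3′ UTR, 5 in coding exons and 4 in introns, and all 15 overlapped a heart cluster. In C2C12 there was 1 in the 3′ UTR, in exon 20, and 3 in introns, and 3 of the 4 overlapped heart. The 3′ UTR share of Atp2a2 clusters was 20.3% in heart and 40.0% in muscle, a difference that Fisher's exact test did not separate from counting error (p = 0.175, BH p = 1).

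Atp2a1 encodes SERCA1, the pump of fast skeletal fibres. It held 9 clusters in heart, 18 in muscle and 0 in C2C12. The heart share was 0.294 of the muscle share (0.116 to 0.689), short of the threshold after adjustment (BH p = 0.0943, Fisher's exact test). By covered nucleotides the gene took 0.0230% of the heart library and 0.118% of the muscle library. All 9 heart clusters overlapped muscle clusters, and 9 of the 18 muscle clusters overlapped heart. Every heart cluster thus lay on a muscle cluster. The skeletal fibre markers Ckm (3 clusters), Acta1 (2), Ryr1 (2), Myh4 (1) and Tnnt3 (1) were bound in the heart library too, while Myh1, Myh2 and Tnni2 were at 0 there, and their part in the Atp2a1 count was not tested. Most clusters were exonic: 5 of 9 in heart and 10 of 18 in muscle lay in coding exons, over 5 and 10 of the 22 coding exons, with 2 in the 3′ UTR in each. The 42-nt exon that 1 of the 2 annotated coding transcripts skips (chr7:133590059-133590100) had no cluster within 300 nt, and the nearest was 384 nt away in heart and 354 nt in muscle.

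Pln encodes phospholamban, the small membrane protein that inhibits SERCA2. It held 10 clusters in heart, 1 in muscle and 0 in C2C12. The ratio of heart to muscle shares was 5.88 with a wide interval (0.836 to 255; BH p = 0.683, Fisher's exact test). All 10 heart clusters fell in exon 2, the last one: 1 in the 5′ UTR, 1 over the 156-nt coding sequence and 8 in the 3′ UTR of 1980 nt, and none lay in the 5961-nt intron. The muscle cluster (chr10:53065697-53065733) lay 90 nt before the transcript end, beyond the last heart cluster, and overlapped none of them.

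Slc8a1 encodes NCX1, the sodium-calcium exchanger of the cardiac surface membrane. It held the most member clusters in heart: 111 in heart, 14 in muscle and 3 in C2C12, which made up 40.8%, 12.2% and 33.3% of the member clusters. The share in heart was 4.66 times that in muscle (2.66 to 8.80; BH p = 5.60e-08, Fisher's exact test), and it passed in each alternative tested (merged clusters, 89 and 13, BH p = 3.30e-05). Against C2C12 the heart share was 4.48 times higher (1.49 to 22.0), with BH p = 0.150 in Fisher's exact test. It passed where genes bound in both libraries alone were tested (exact-test BH p = 2.89e-04), and not with merged clusters (0.318). Muscle over C2C12 was 0.961 (0.268 to 5.21). Cardiomyocyte markers moved the same way (343 clusters in heart and 2 in muscle), and their part in the result was not tested. Without Slc8a1, the members held 161 heart clusters (0.381%) and 101 muscle clusters (0.407%).

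The Slc8a1 clusters fell in 4 places along a gene annotated at chr17:81785359-82048947, minus strand. The annotated 3′ UTR is 9 nt long and the annotation has no 5′ UTR, so the ends of the gene were described by distance. In heart, 49 clusters lay in intron 1, which spans 202215 nt, and 10 in later introns before the stop codon. Coding exons held 8, of which 4 were in exon 1 and 3 in exon 10. Past the last base of the exon with the stop codon (81788031) lay 34 clusters (30.6%), between 136 and 15533 nt downstream with a median of 4462.5 nt, and 22 of them were past the annotated gene end. The other 10 lay 45.1 to 86.6 kb upstream of the annotated start. In muscle, 7 were in intron 1, 4 past the stop exon (2616 to 11619 nt) and 3 upstream (50.1 to 54.6 kb). The 3 clusters in C2C12 were all in intron 1, and the largest of them (chr17:82047072-82047129, 22 UGUs) lay 20 nt after exon 1. Of the 14 muscle clusters 12 overlapped heart, and 2 of the 3 in C2C12 did. One heart cluster, at chr17:81841549-81841603, overlapped a 21-nt exon that some annotated transcripts skip (chr17:81841543-81841563), and no other Slc8a1 cluster came within 300 nt of a skipped exon.

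**Figure D2:**
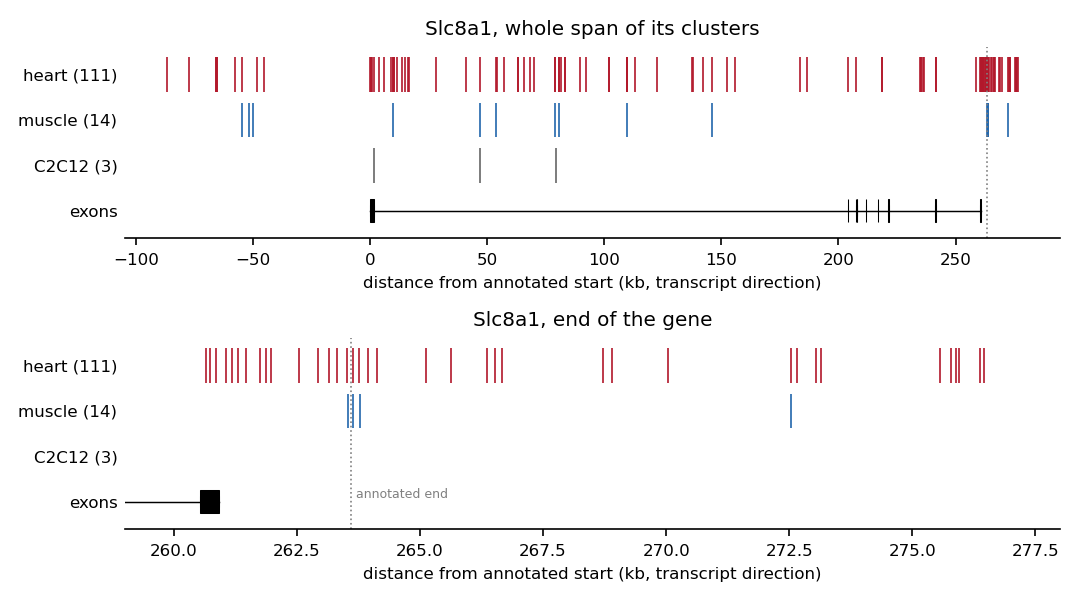
Midpoints of Slc8a1 clusters (vertical lines) in heart, muscle and C2C12 by distance from the annotated start in kb, in the direction of transcription, above the exons of the reference transcript, with the lower panel widening the end of the gene. The 34 heart clusters past the stop exon continue to 15533 nt beyond it, and the dotted line marks the annotated end.

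The calsequestrins differed in their counts, both short of the threshold. Casq2, the cardiac form, held 18 clusters in heart, 1 in muscle and 0 in C2C12 (heart over muscle 10.6, interval 1.67 to 441, BH p = 0.117, Fisher's exact test). In heart, 12 lay in introns, 6 of them in intron 1, and 6 in the 3′ UTR of 1087 nt. The muscle cluster (chr3:101950268-101950310) lay inside the last of those 3′ UTR clusters, 144 nt before the reference transcript's end. A Casq2 heart cluster at chr3:101920731-101920799, with 7 UGUs, ran into a 112-nt exon that some transcripts skip (chr3:101920787-101920898). Casq1, the fast skeletal form, held 2 clusters in heart, 3 in muscle and 0 in C2C12 (0.392, 0.0327 to 3.42, BH p = 0.978 in the exact test), all in its 454-nt 3′ UTR. The 3 muscle clusters, 125 to 126 nt wide, formed a single stretch of 385 nt (chr1:174140035-174140419), and both heart clusters lay within it.

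Trdn encodes triadin, which anchors calsequestrin at the release channel. No cluster carried its identifier (0 of 42263 in heart, 0 of 24844 in muscle and 0 of 5115 in C2C12), although the gene is the longest of the members (393227 nt, chr10:32803289-33196515, plus strand). Whether clusters at this position carried another identifier, or whether the authors' gene set held this one, was not tested. By counting error alone, a count of 0 allows a share of up to 0.00710% of heart clusters and 0.0121% of muscle clusters.

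Asph gives rise, through different promoters and 3′ ends, to the enzyme aspartyl beta-hydroxylase and to shorter membrane proteins that include junctin, the partner of triadin. It held 43 clusters in heart, 29 in muscle and 2 in C2C12, and its share was 0.102% in heart and 0.117% in muscle (ratio 0.872, interval 0.532 to 1.45). Heart over C2C12 was 2.60 (0.678 to 22.2) and muscle over C2C12 was 2.99 (0.755 to 25.8). In heart 19 clusters lay in 3′ UTRs, 1 in a coding exon and 23 in introns, and in muscle 11, 1 and 16 did, with 1 in a 5′ UTR. Within 300 nt of an exon that some transcripts lack lay 17 heart, 13 muscle and 2 C2C12 clusters, mostly in 3′ UTRs. The 3′ UTR clusters among them lay in last exons of shorter transcripts, the alternative ends given below. The coding clusters, chr4:9566364-9566424 in heart and chr4:9566361-9566415 in muscle, lay inside a skipped 150-nt exon (chr4:9566345-9566494). The 5′ UTR cluster in muscle (chr4:9570686-9570734) lay in a 107-nt exon that some transcripts lack, and whether that exon starts a transcript was not tested.

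The Asph clusters marked its alternative ends unevenly. The 3′ UTR of transcripts with 5 to 6 exons (chr4:9548055-9549029, 975 nt) held 8 clusters in heart and 8 in muscle, 8.21 per kb in each, as abutting rows of 750 nt in heart and 826 nt in muscle. It held 0 in C2C12. The 3′ UTR of transcripts with 12 to 14 exons (chr4:9502414-9504115) held 6 clusters in heart, 2 in muscle and both of the C2C12 clusters. The 4367-nt 3′ UTR of transcripts with 22 to 24 exons held 4, 0 and 0 clusters. An end used by transcripts of 4 to 5 exons held 1, 1 and 0. Beyond the 12-to-14-exon end, 94.1 kb from the start of the gene, heart had 9 clusters and neither muscle nor C2C12 had any. No test was run between the ends.

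**Figure D3:**
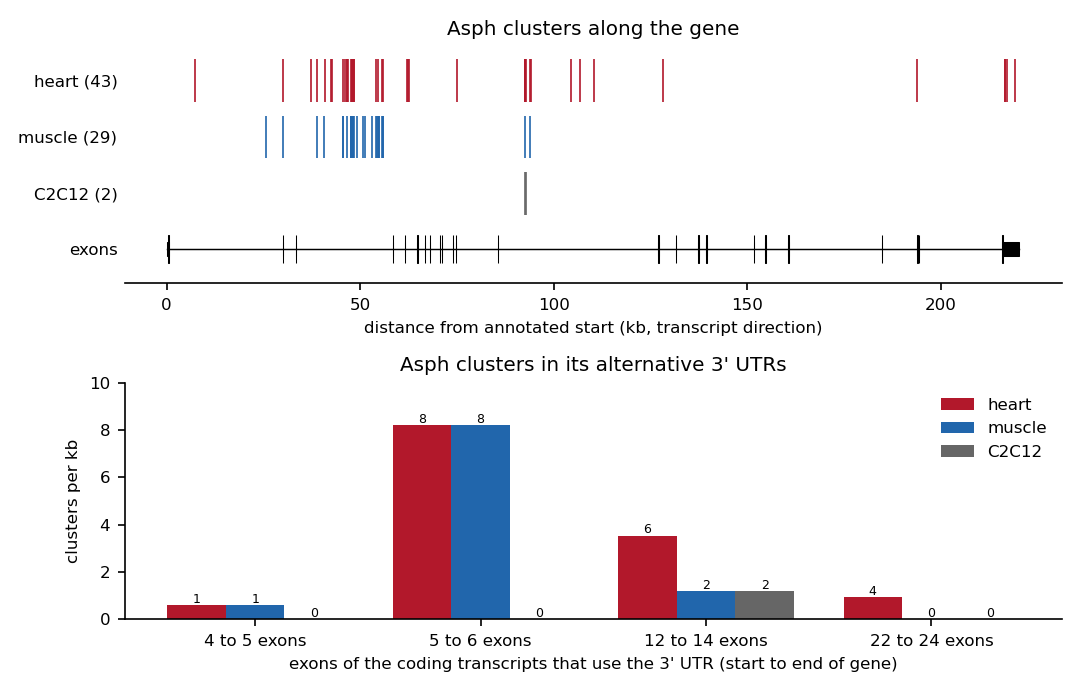
The upper panel shows Asph cluster midpoints in heart, muscle and C2C12 by distance from the annotated start in kb, above the exons of the longest coding transcript. The lower panel gives clusters per kb in each alternative 3′ UTR, ordered from the start to the end of the gene, with the cluster number above each bar (8 in heart and 8 in muscle at the end of the transcripts with 5 to 6 exons).

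Jph2 encodes the junctophilin of the heart, which skeletal muscle also uses. It held 14 clusters in heart, 11 in muscle and 0 in C2C12 (heart over muscle 0.748, interval 0.316 to 1.82, BH p = 1, Fisher's exact test). Binding was intronic, at 13 of the 14 heart clusters and 10 of the 11 muscle clusters. The remaining cluster of each tissue sat at the same place in coding exon 5 (chr2:163164341-163164411 in heart). A UG-rich stretch of intron 2 held 5 abutting heart clusters over 550 nt (chr2:163198263-163198812) with 106 UGUs, and 4 muscle clusters over 346 nt with 74. One heart cluster of that stretch, with 33 UGUs in 125 nt, held the highest number of UGUs of the 396 member clusters, though not the highest density. Of the Jph2 clusters, 9 of 14 in heart overlapped muscle and 9 of 11 in muscle overlapped heart.

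Jph1, the junctophilin of skeletal muscle, was the only member called higher in muscle. It held 6 clusters in heart, 23 in muscle and 0 in C2C12. The heart share was 0.153 of the muscle share (0.0511 to 0.387; BH p = 9.25e-04, Fisher's exact test), so that muscle was 6.52 times higher, and the call held in each alternative tested (BH p 2.62e-04 to 0.00342). Skeletal fibre markers moved the same way (9 clusters in heart and 87 in muscle), and their part in the result was not tested. Against C2C12 the muscle difference did not pass (p = 0.0235, BH p = 0.512, Fisher's exact test). All 6 heart clusters and 22 of the 23 muscle clusters were intronic, 5 and 16 of them in intron 2 (75140 nt), and 1 muscle cluster lay in coding exon 4. The annotated 3′ UTR of Jph1 is 18 nt long, which leaves almost no room for a cluster midpoint. No Jph1 cluster of either tissue lay past the annotated gene end.

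Few Jph1 sites were shared between the tissues. Of the 6 heart clusters 2 overlapped a muscle cluster, and of the 23 muscle clusters 2 overlapped a heart cluster (8.70%, exact interval 1.07% to 28.0%). Over all muscle clusters 52.8% overlapped heart, and over all intronic muscle clusters 43.6% did, and the difference was not tested. With 6 heart clusters in the gene, few muscle clusters could overlap one. The 2 shared places were both in intron 2, at chr1:17042151-17042225 and chr1:17077247-17077294 in muscle. No Jph1 or Jph2 intronic cluster lay within 300 nt of an exon in either tissue.

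**Figure D4:**
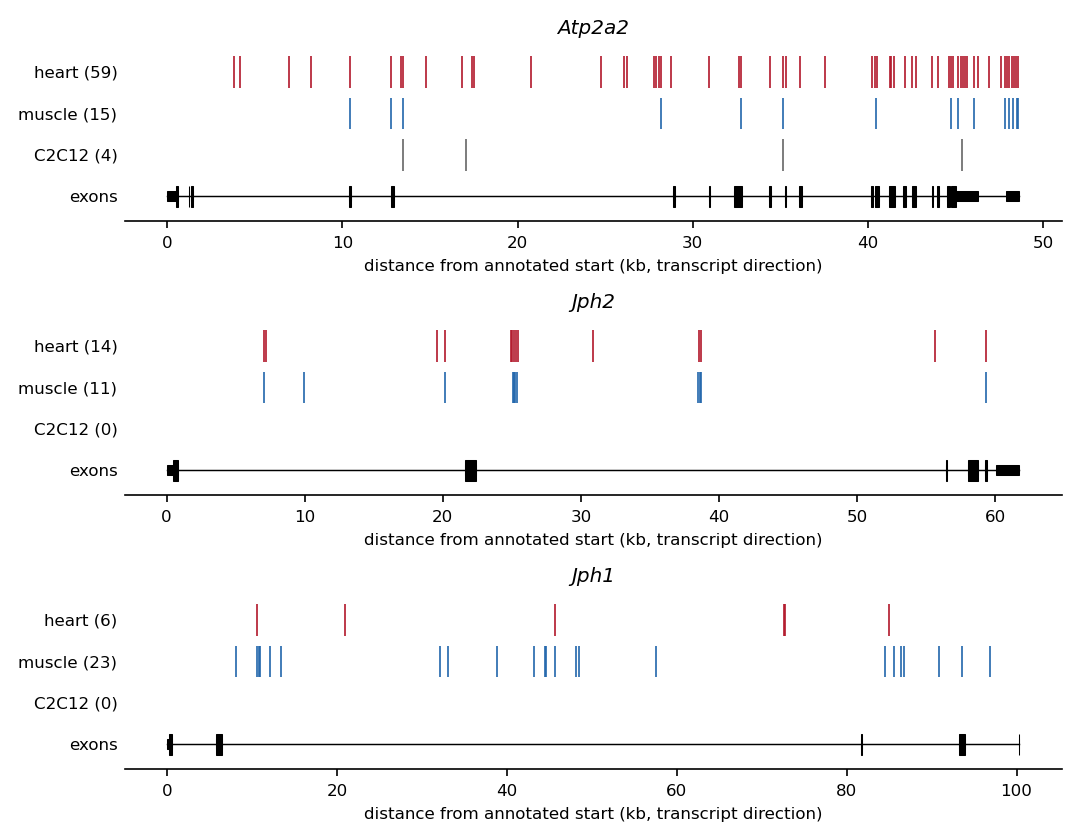
Cluster midpoints in Atp2a2, Jph2 and Jph1 (vertical lines; heart, muscle and C2C12 from top to bottom, numbers in brackets) by distance from the annotated start in kb, above the exons, in which thick boxes are coding. Atp2a2 clusters follow the exons toward the end of the gene, 9 of the 11 Jph2 muscle clusters overlap a heart cluster, and 21 of the 23 Jph1 muscle clusters have no heart cluster over them.

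By gene part, the members in heart and in muscle had a smaller share of clusters in 3′ UTRs and a larger share in coding exons than the library as a whole, a comparison given without a test. In heart, 18.0% (49) lay in 3′ UTRs, against 33.4% of all heart clusters, and 13.6% (37) in coding exons, against 5.80%. In muscle, 20.9% (24) lay in 3′ UTRs, against 50.5% of all, and 15.7% (18) in coding exons, against 4.57%. Introns held 56.3% in heart and 57.4% in muscle, against 59.5% and 43.5% of all clusters. These include 12 Slc8a1 clusters in heart and 1 in muscle that lay past the stop exon, in the last intron of another annotated transcript. With these counted as 3′ UTR, a choice made after seeing the data, introns held 51.8% in heart and 56.5% in muscle. In C2C12, 3 of the 9 clusters lay in 3′ UTRs, where 34.2% of all did, and 0 of 9 in coding exons, where 3.82% did. The coding share came mostly from the pumps, with 26 of 37 clusters in heart and 15 of 18 in muscle. The low 3′ UTR share in heart came from Slc8a1, whose short annotated 3′ UTR can hold none of its 34 downstream clusters: without the gene the share was 30.4%, and with those clusters counted as 3′ UTR, an alternative chosen after seeing the data, it was 30.5%. In muscle the share without Slc8a1 was 23.8%, and that set includes the 23 clusters of Jph1, whose annotated 3′ UTR is 18 nt long. Of 1396 genes with enough clusters in both tissues, 0 changed their 3′ UTR share between heart and muscle by Fisher's exact test with BH adjustment (3.01% did unadjusted). Of the 6 members with enough clusters, Slc8a1, Jph1 and Jph2 had none in a 3′ UTR in either tissue. The annotated 3′ UTRs of Slc8a1 (9 nt) and Jph1 (18 nt) leave almost no room for a cluster midpoint. Atp2a2, Atp2a1 and Asph did not pass Fisher's exact test unadjusted (p = 0.175, 0.582 and 0.634).

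**Figure D5:**
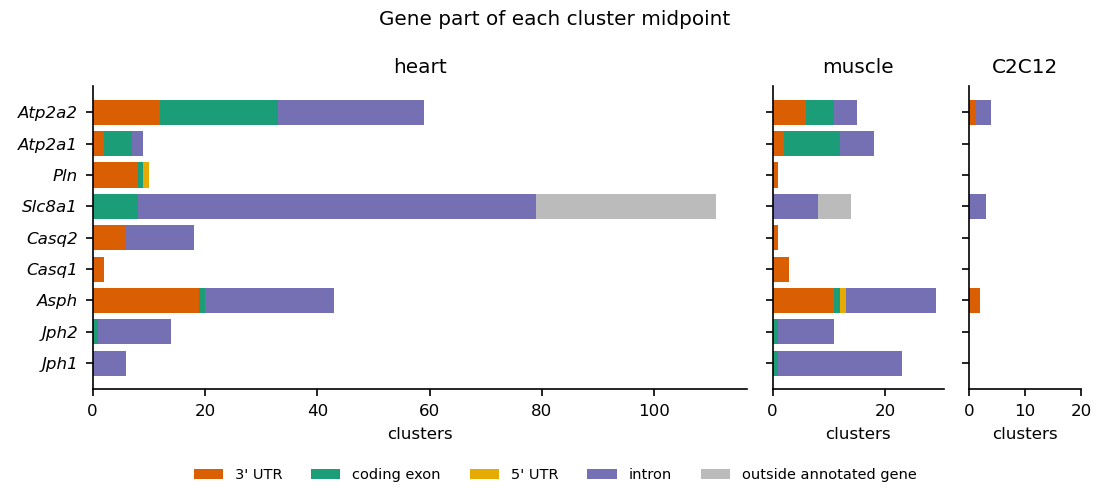
Number of clusters of each gene by the gene part that holds the cluster's midpoint, in heart, muscle and C2C12. Coding exons fill 21 of 59 Atp2a2 clusters in heart and 10 of 18 Atp2a1 clusters in muscle, Pln and Casq1 clusters are exonic, and Jph1 and Jph2 clusters are nearly all intronic.

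Most intronic clusters were far from exons: 22 of 153 in heart (14.4%) and 6 of 66 in muscle (9.09%) lay within 300 nt of one, and the median distance was 3404 nt in heart and 3461.5 nt in muscle. These counts include the 12 heart clusters and 1 muscle cluster of Slc8a1 that lay past its stop exon. Over both tissues, 5 of 8 Atp2a1, 8 of 30 Atp2a2 and 3 of 12 Casq2 intronic clusters lay within 300 nt of an exon. Between libraries, 25.7% of heart clusters in the members overlapped a muscle cluster (70 of 272, against 30.9% of all heart clusters), and 58.3% of muscle clusters overlapped a heart cluster (67 of 115, against 52.8%). Where overlap had to cover 50% of both clusters, the order for muscle turned round, with 38.3% of member clusters overlapping heart, against 43.5% of all. Among members with at least 5 muscle clusters, overlap with heart ran between 15 of 15 in Atp2a2 and 2 of 23 in Jph1. Of the 9 C2C12 clusters 7 overlapped heart and 4 overlapped muscle, where 33.9% and 25.0% of all C2C12 clusters did.

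Among 50 further genes of calcium handling in muscle, chosen as a list, 43 had a cluster: 36 in heart, 39 in muscle and 13 in C2C12. They held 829 clusters in heart (1.96%), 342 in muscle (1.38%) and 28 in C2C12 (0.547%). Of the 43 tested between heart and muscle, 3 were higher and 5 lower in heart by Fisher's exact test with BH adjustment, where 0.944% of all genes were higher and 0.852% lower. The 3 with the most clusters were Ryr2, the cardiac release channel (252 in heart, 0 in muscle and 0 in C2C12), Cacna1c, the pore of the cardiac L-type calcium channel (223, 6 and 0), and Cacna2d1, an accessory subunit of that channel (54, 48 and 3). Ryr1 and Ryr2 stand in this list and in the marker lists. Against C2C12, 2 of 37 genes were higher in heart and 1 of 39 in muscle, and none was lower. Over all genes, 0.176% were higher and 0.609% lower in heart, and 0.146% were higher and 0.569% lower in muscle.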

How the data were processed

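CELF1 CLIP-seq was available for 1 library each of heart ventricle, muscle and C2C12 myoblasts. The labels and methods state that the authors removed duplicate reads by means of a short barcode, cut off adapters and kept reads with a single match to mm9, found with Bowtie and TopHat (versions not given in the sources used here). The authors then called clusters in each library with a Poisson test that took gene expression and unspliced length into account, so a poorly expressed gene can lack a cluster for want of reads. The deposited lists give start, end, strand and Entrez identifier, and the deposited score column holds 1 value, 1e-06, throughout and was not used. Reads per cluster are unknown.

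Clusters were used as deposited. Identifiers were paired with symbols through a RefSeq gene table of GRCm38.p6 (names only) and with GENCODE vM1 models on NCBIM37, the assembly of mm9, for 7981 of 8037 identifiers (99.3%). Positions count from 1. Gene part was set by the midpoint in the order 3′ UTR, coding exon, 5′ UTR, intron, other, over protein-coding transcripts, and exon numbers are those of 1 reference transcript per gene. Skipped exons included the last exons of shorter Asph transcripts. Skipped exons under 20 nt were left out. UGUs were counted with overlaps, and libraries overlapped where clusters shared at least 1 bp on 1 strand. Shares have Clopper-Pearson 95% intervals. Ratios of shares have exact conditional intervals. Fisher's exact tests were two-sided, BH-adjusted over all genes of a pair at 0.05, and the 3′ UTR test used genes with at least 5 clusters in each tissue. The upper limit for a count of 0 was set at 3 clusters.

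All 10 members were named. Single clusters were named where all libraries shared them, where they were the widest or richest in UGU, or near a skipped exon. Asph clusters near a skipped exon were given as counts, except those in coding exons and the 5′ UTR. Of the other calcium handling genes the 3 with the most clusters were named. Members, this list and the marker lists (cardiomyocyte, skeletal muscle fibre, myoblast, endothelial, fibroblast, smooth muscle, macrophage, Schwann cell) were chosen with earlier results of these data known. Alternatives were merged clusters, genes bound in both libraries, covered nucleotides, a fold rule, a width minimum, other rules for gene part and overlap, and the members without Slc8a1. The test was tried on simulated data with 200 changed genes. Python 3.11.15, pandas 2.3.3, scipy 1.17.1, pysam 0.24.0 and samtools 1.23.1 were used.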

Additional observations from a re-analysis of the deposited data

How the results depend on the processing

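No paired analysis was possible because each group held 1 library, and for the same reason no replicate could be left out. Of 75 alternative values for the single genes, 73 kept their side of the threshold. The exceptions were Atp2a2 between heart and muscle (BH p = 0.0394) and Slc8a1 between heart and C2C12 (BH p = 2.89e-04), which passed Fisher's exact test when genes bound in both libraries alone were counted. Fewer genes were then tested. In that setting 3 members were called between heart and muscle and 1 between heart and C2C12, against 2 and 0 with all genes. No share over all genes is given for that setting. With calls made by a share at least 2 times higher or lower and 5 or more clusters, 7 members were called between heart and muscle, 7 between heart and C2C12 and 4 between muscle and C2C12, against 2, 0 and 0 by the test. Over all genes with that many clusters, 23.6% were higher and 19.3% lower in heart than in muscle. Against C2C12 the shares were 49.6% and 22.7% for heart and 46.9% and 19% for muscle. Of the members called against C2C12, 5 of 7 and 3 of 4 had 0 clusters there, and nothing is read from their counts. The 3′ UTR share of the members in heart was 30.4% without Slc8a1 and 30.5% with its clusters past the stop exon counted as 3′ UTR, against 18.0%. With overlap defined as 50% of both clusters, the shares were 16.2% of heart in muscle, 1.10% of heart in C2C12, 38.3% of muscle in heart and 33.3% of C2C12 in heart, against 25.7%, 2.94%, 58.3% and 77.8% with any overlap. Over all clusters they were then 25.6%, 2.23%, 43.5% and 18.4%. Without Slc8a1, heart in muscle was 36.0%. By covered nucleotides, 1 of 27 differences changed sign (Jph2, 0.0430% in heart and 0.0408% in muscle), and neither called gene did. The covered shares in heart and muscle were 0.0321% and 0.00249% for Pln, 0.0471% and 0.00290% for Casq2, and 0.00561% and 0.0253% for Casq1. Clusters split from a long stretch are not independent, so intervals and p-values of genes such as Atp2a2 are narrower than they should be. With 5115 clusters in C2C12, a gene with no cluster there may still hold up to 0.0587% of the library, which is above the heart share of each bound member that C2C12 lacked. In muscle, Atp2a1 (0.0725%) and Jph1 (0.0926%) lay above that limit.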
